A study of Rattus norvegicus with 44 samples.

Results

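Cyp2b2, Cyp2c6v1, Cyp2c7 and Aldh1a1 encode rat liver enzymes of drug and vitamin A metabolism and were followed together as genes of the kind that respond to the nuclear receptor CAR. The 4 genes were chosen by name, with earlier results of these data known. They were read from every probe set of the array that was annotated with 1 of these symbols and no other. Of 4736 genes read in this way these are 4, held by 6 of the array's 8799 probe sets: K01721mRNA_s_at and J00728cds_f_at for Cyp2b2, rc_AA945571_s_at and M14776_f_at for Cyp2c6v1, M14775_s_at for Cyp2c7 and AF001898_at for Aldh1a1. All 6 passed the filter on dim signal, which left 6361 probe sets for testing. Another 7 probe sets carry several symbols, 4 of them with Cyp2b2 and 3 with Cyp2c7, and are described apart. In the RefSeq annotation of GRCr8 all 4 genes lie on chromosome 1, Cyp2b2 at 90722243 to 90736272, Aldh1a1 at 227426939 to 227579497, Cyp2c6v1 at 247879058 to 247916804 and Cyp2c7 at 247966295 to 248022393.

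CAR and its relative PXR are receptors that sense foreign compounds in hepatocytes. Once activated they bind DNA as partners of RXR and raise the transcription of oxidising enzymes, conjugating enzymes and transporters. Cyp2b2 is a monooxygenase of the phenobarbital-induced family and the classical CAR target of rat liver, where it is scarce until an inducer is given. Cyp2c6v1 is a constitutive monooxygenase of the liver with a modest response to phenobarbital. Cyp2c7 is a retinoid-oxidising monooxygenase that follows the growth hormone pattern and is more abundant in female rats. Aldh1a1 is the cytosolic dehydrogenase that turns retinaldehyde into retinoic acid, and in mouse liver it is induced by activators of CAR.

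Liver RNA was hybridised to 44 Affymetrix rat arrays in 4 studies, each with its own vehicle group of citric acid buffer and all in male Wistar rats of 8 weeks, dosed by gavage once daily. Doses are amounts per day and are written as mg/kg. Study 1 sampled at 24 h, with 3 vehicle arrays and 4, 3 and 3 arrays at 10, 30 and 100 mg/kg of compound R1. Study 2 sampled at 336 h, with 4 vehicle arrays, 5 at 20 mg/kg of R1 and 4 at 100 mg/kg. Study 3 compared 4 arrays at 30 mg/kg of R1 with 5 vehicle arrays at 336 h, and study 4 compared 5 arrays at 300 mg/kg of compound R2 with 4 vehicle arrays at 24 h. R1 and R2 are known here by code name only. Per the labels the rats were killed 24 h after their last dose and the RNA came from a slice of the left lateral lobe. Nothing in the labels ties each array to an animal of its own, so the p-values reflect the scatter among these arrays, part of which could be technical. Arrays of a group correlated between 0.924 and 0.974, and precision is limited by how few arrays a group has. The tissue label held: across all arrays the hepatocyte genes Alb, Ttr and Apoa1 had signals of 8854 to 12600, 5155 to 8854 and 3862 to 8854, whereas Ptprc, a leukocyte gene, had 2.27 to 28.9.

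Sequences around the annotated starts were available from RefSeq for 3 of the 4 genes, Cyp2b2, Cyp2c7 and Aldh1a1. They are shown because these 3 genes were called after 336 h of R1, with 2 of them higher and 1 lower. Each runs from 250 bases before to 50 bases after the start, on the plus strand of GRCr8. The windows are chr1:90722031-90722330 for Cyp2b2, chr1:247966144-247966443 for Cyp2c7 and chr1:227537370-227537669 for Aldh1a1. The Aldh1a1 start lies 110681 bases inside the annotated span of the gene. Capitals mark AGGTCA, the hexamer that nuclear receptors of this family bind, on either strand. They also mark ATAAAA, which resembles the box found just upstream of many gene starts. The reference is not the sequence of the Wistar rats of the study.
Cyp2b2: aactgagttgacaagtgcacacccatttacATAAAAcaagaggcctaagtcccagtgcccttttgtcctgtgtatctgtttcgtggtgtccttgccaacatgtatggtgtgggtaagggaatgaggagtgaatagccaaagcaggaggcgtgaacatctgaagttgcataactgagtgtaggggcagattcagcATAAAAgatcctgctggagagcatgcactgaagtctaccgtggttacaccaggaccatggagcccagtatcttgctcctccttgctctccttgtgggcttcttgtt
Cyp2c7: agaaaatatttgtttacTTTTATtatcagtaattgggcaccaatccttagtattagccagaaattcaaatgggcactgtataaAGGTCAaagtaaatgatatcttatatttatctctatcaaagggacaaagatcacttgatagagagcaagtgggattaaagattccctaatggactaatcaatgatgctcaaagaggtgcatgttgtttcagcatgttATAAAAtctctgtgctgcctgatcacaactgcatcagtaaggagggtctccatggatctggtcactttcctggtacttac
Aldh1a1: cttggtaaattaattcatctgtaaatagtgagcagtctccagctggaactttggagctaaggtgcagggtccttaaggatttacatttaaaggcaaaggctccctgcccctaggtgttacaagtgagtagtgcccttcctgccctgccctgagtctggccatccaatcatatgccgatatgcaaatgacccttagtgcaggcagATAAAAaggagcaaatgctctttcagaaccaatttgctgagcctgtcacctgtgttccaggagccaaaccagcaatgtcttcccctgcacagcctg

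Of the 3 windows, that of Cyp2c7 held AGGTCA, at -167 from the start, a hexamer found on either strand in 16.2% of 33469 promoters of the same length. None of the 3 held AGTTCA (14.5% of promoters), the spaced repeat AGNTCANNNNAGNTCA (0.0568%), the repeat AGNTCANAGNTCA (0.152%) or TTCNNNGAA (8.87%), all searched on both strands. ATAAAA, found in 20.5% of promoters, stood at -30 in Cyp2c7, at -56 and -220 in Cyp2b2 and at -46 in Aldh1a1, and on the minus strand at -233 in Cyp2c7. In rat Cyp2b2 the known phenobarbital-responsive enhancer lies far upstream of such a window, so these matches describe the windows only.

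Signals are the deposited intensities, which share 1 common scale on all arrays. Differences are log2 fold changes ± SE on log2(signal + 2.9), which understate changes of dim genes. They come from limma's linear model over all 11 groups, with Benjamini-Hochberg adjustment over the 6361 probe sets of a comparison, and calls were made where that p lay under 0.05. In slices of whole tissue, a change in the number of cells of a type and a change of RNA per cell cannot be told apart.

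Cyp2b2 and Aldh1a1 rose with both compounds, Cyp2c7 fell after 336 h of R1 and not at 24 h, and 1 probe set of Cyp2c6v1 was called with R2, at a size close to its uncalled value at 10 mg/kg of R1 (0.54 ± 0.17 and 0.48 ± 0.20). At 24 h of R1, 1 of the 6 probe sets was called at 10 mg/kg against 1.24% of all probe sets, 3 at 30 mg/kg against 1.73%, and 1 at 100 mg/kg against 6.4%. At 336 h, 4 of 6 were called at each dose of R1, against 4.43% of all probe sets at 20 mg/kg, 11.3% at 30 mg/kg and 10.3% at 100 mg/kg. R2 also called 4 of 6, against 15.3% of all probe sets. The median over all probe sets tested lay between -0.05 and -0.01 in these 7 comparisons. Cyp2b2 or Aldh1a1 accounted for every call at 24 h of R1, and at 336 h the 4 calls were both Cyp2b2 probe sets, Aldh1a1 and Cyp2c7, as the plot of fold changes shows.

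**Figure D1:**
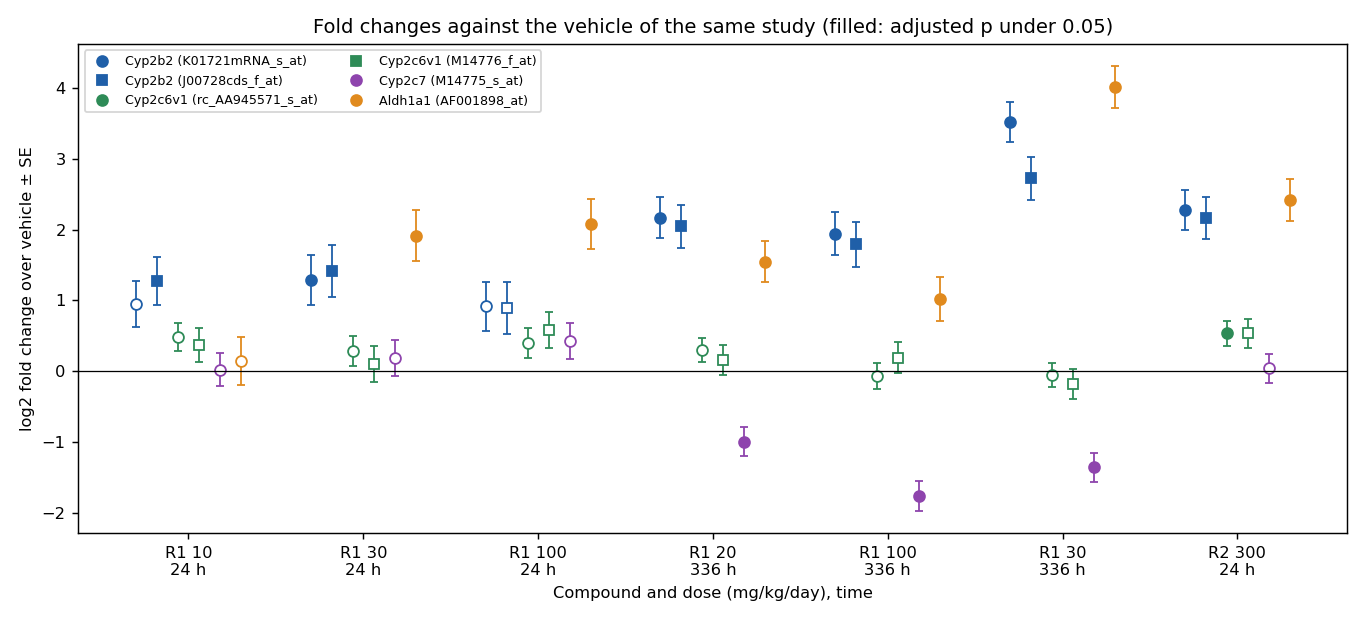
Log2 fold change ± SE over the vehicle of the same study (vertical axis) for the 6 probe sets in the 7 dosed groups (horizontal axis, compound and dose in mg/kg with sampling time in h); filled symbols passed an adjusted p under 0.05. Both Cyp2b2 probe sets and Aldh1a1 lie above 0 in all 7 groups, with their highest values at R1 30 after 336 h, Cyp2c7 lies below 0 in the 3 groups of 336 h, and Cyp2c6v1 stays between -0.17 and 0.58.

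Cyp2b2 rose with R1 after 336 h at every dose and with R2, and at 24 h of R1 it was called by both probe sets at 30 mg/kg, by 1 at 10 mg/kg and by neither at 100 mg/kg. Of its probe sets, K01721mRNA_s_at was called higher in 5 of 7 comparisons and J00728cds_f_at in 6 of 7, and both had log2 fold changes above 0 in all 7. In study 1, K01721mRNA_s_at had signals of 1469, 1623 and 1244 in vehicle livers, 3571, 2426, 2552 and 2715 at 10 mg/kg of R1, 6408, 2397 and 2828 at 30 mg/kg, and 2411, 2109 and 3934 at 100 mg/kg. Every dosed array lay above every vehicle array, and the doses overlapped each other. The array at 6408 is the highest value of this probe set in the series. The log2 fold changes were 0.95 ± 0.32 at 10 mg/kg (adjusted p = 0.208), 1.29 ± 0.35 at 30 mg/kg (adjusted p = 0.0382) and 0.92 ± 0.35 at 100 mg/kg (adjusted p = 0.115). Between doses the difference of 100 from 10 mg/kg was -0.04 with a 95% interval of -0.69 to 0.62. The call at 30 mg/kg rested on few arrays: it ended without any 1 of the 3 vehicle arrays or without the 30 mg/kg array 1, and with no filter, no trend or arrays weighted by quality, with adjusted p between 0.0162 and 0.365 over all settings tried. At 100 mg/kg it was called with weighted arrays (adjusted p between 0.0259 and 0.437 over the settings).

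The other probe set of Cyp2b2, J00728cds_f_at, gave 447.1, 583.6 and 560.3 in study 1 vehicle livers, 1284, 1012, 1564 and 1311 at 10 mg/kg, 2059, 1106 and 1213 at 30 mg/kg, and 1356, 519.7 and 1329 at 100 mg/kg. The second array at 100 mg/kg lay among the vehicle arrays, and the rest lay above them. Its log2 fold changes were 1.27 ± 0.34 (adjusted p = 0.0498), 1.41 ± 0.37 (adjusted p = 0.031) and 0.89 ± 0.37 (adjusted p = 0.164) from the lowest to the highest dose. The call at 10 mg/kg ended without any 1 of its 7 arrays and with 5 other settings (adjusted p up to 0.27), and the call at 30 mg/kg ended without any 1 vehicle array, without the 30 mg/kg array 1 and with no trend (adjusted p up to 0.236). Without the 100 mg/kg array 2, J00728cds_f_at was called at that dose too (adjusted p between 0.0288 and 0.515 over the settings).

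After 336 h both probe sets of Cyp2b2 rose at every dose of R1 and in every setting tried. K01721mRNA_s_at had 689.8, 323.2, 634.2 and 559.0 in study 2 vehicle livers, 2552, 1233, 2442, 2902 and 3532 at 20 mg/kg of R1, and 1655, 1248, 3078 and 2749 at 100 mg/kg. Both doses lay wholly above the vehicle and overlapped each other. Against vehicle the log2 fold changes were 2.17 ± 0.28 at 20 mg/kg (adjusted p = 3.94e-07) and 1.94 ± 0.30 at 100 mg/kg (adjusted p = 3.75e-06), and the higher dose minus the lower was -0.23 with a 95% interval of -0.80 to 0.35. In study 3 the 4 livers at 30 mg/kg of R1 had 3191, 3339, 2766 and 2468, against 234.7, 190.5, 249.6, 243.0 and 373.9 in the 5 vehicle livers. This was the largest Cyp2b2 change of the series at 3.52 ± 0.28, or 11.5-fold (adjusted p = 7.29e-13). J00728cds_f_at rose by 2.04 ± 0.30, 2.72 ± 0.30 and 1.79 ± 0.32 at 20, 30 and 100 mg/kg.

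R2 gave a Cyp2b2 rise after 24 h that held in all settings. K01721mRNA_s_at had 2164, 2059, 2290, 2315 and 1898 in livers at 300 mg/kg of R2, against 288.3, 698.7, 603.7 and 308.5 in study 4 vehicle livers. The dosed livers lay close together and the vehicle livers fell into a lower and a higher pair. The log2 fold change was 2.27 ± 0.28 (adjusted p = 5.77e-08), and J00728cds_f_at gave 2.16 ± 0.30 (adjusted p = 6.36e-07). Beside it, R1 at 24 h gave 0.92 to 1.29 at doses of 10 to 100 mg/kg with K01721mRNA_s_at, and no dose was given of both compounds. In levels, R2 livers had a mean of 2145 over a vehicle mean of 474.8. R1 livers had means of 2816, 3878 and 2818 at 10, 30 and 100 mg/kg, over a vehicle mean of 1445.

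Vehicle livers differed in Cyp2b2 between the studies compared, by 1 of the probe sets that carry its symbol alone, and at 336 h also by shared ones. K01721mRNA_s_at was lower in study 4 vehicle livers than in study 1 vehicle livers at the same 24 h by 1.70 on the log2 scale (-1.70 ± 0.32, adjusted p = 5.25e-04, 1 of 6 probe sets called against 5.64% of all). At 336 h it was lower in study 3 vehicle livers than in study 2 vehicle livers (-1.07 ± 0.28, adjusted p = 0.00593, 3 of 6 called against 17.8% of all). For the same vehicle pairs J00728cds_f_at gave -0.90 ± 0.34 at 24 h (adjusted p = 0.116) and -0.52 ± 0.30 at 336 h (adjusted p = 0.251). Neither was called. Of the 4 probe sets that share Cyp2b2 with another symbol, 3 were called lower in study 3 than in study 2 vehicle livers. The log2 differences of the 4 ran from -2.10 to -0.50. For study 4 against study 1 vehicle livers 0 of 4 were called, at -1.04 to -0.90. Group means of K01721mRNA_s_at ran from 2145 to 3878 over all 7 dosed groups, and from 258.3 to 1445 over the 4 vehicle groups. In the order of the 11 group levels, neighbours overlapped everywhere except between study 1 vehicle and study 2 vehicle, for both probe sets. The effect of 30 mg/kg of R1 was larger at 336 h than at 24 h by 2.23 ± 0.45 (adjusted p = 0.00466), where 3 of 6 probe sets were called against 0.959% of all. In the levels behind that difference, dosed livers had means of 2941 at 336 h and 3878 at 24 h and overlapped, and vehicle livers had means of 258.3 at 336 h and 1445 at 24 h and did not. J00728cds_f_at gave a difference of 1.32 ± 0.48 that was not called (adjusted p = 0.25).

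**Figure D2:**
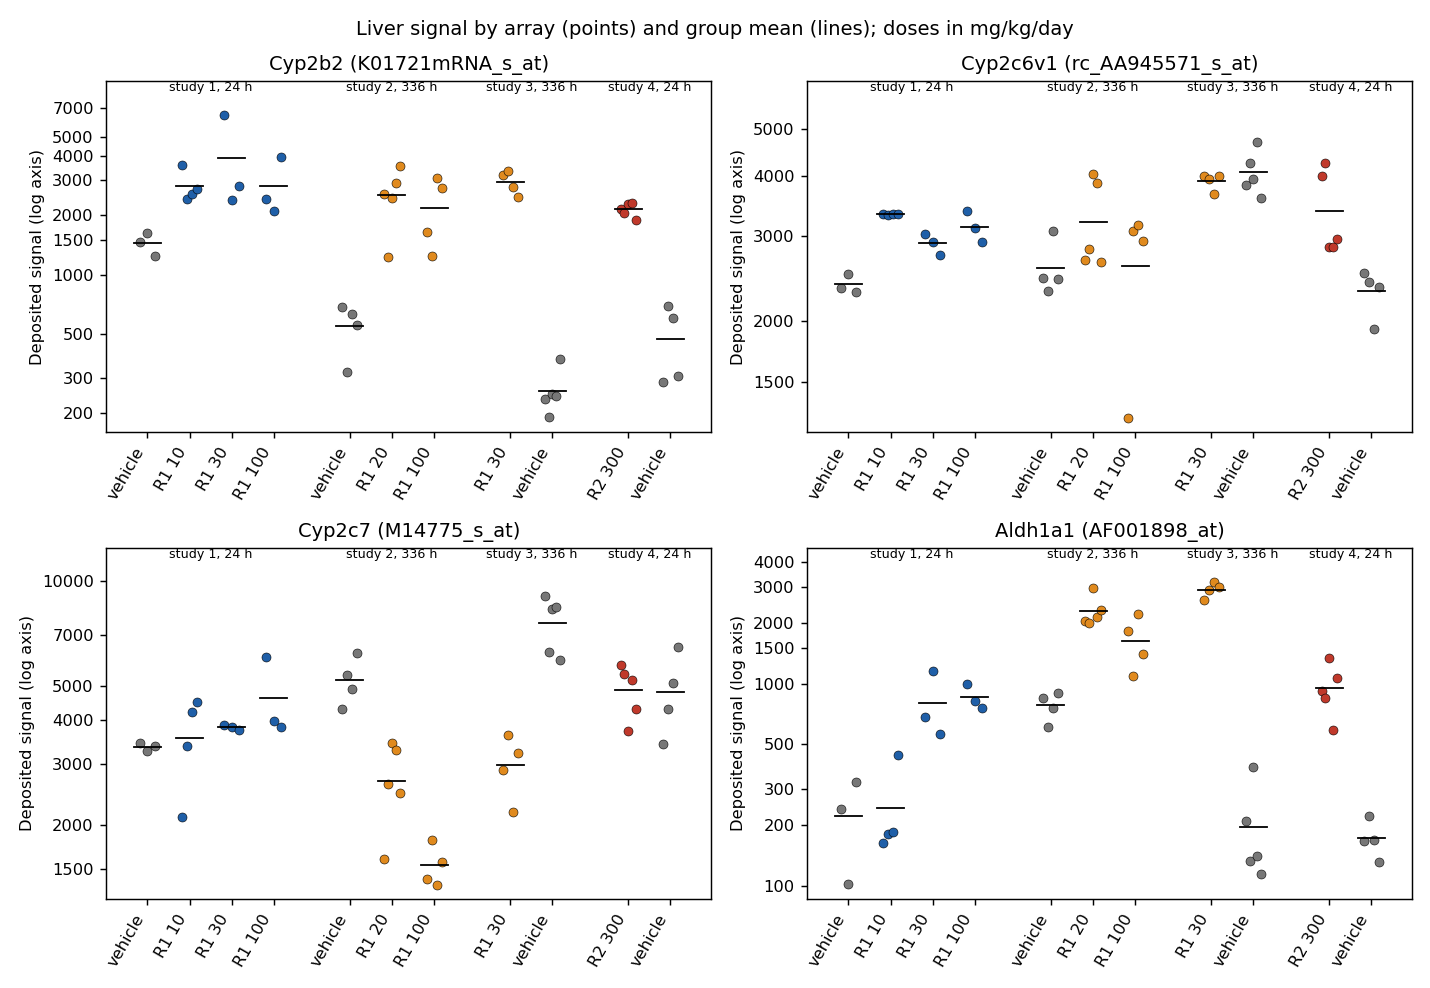
Deposited signal on a log axis in each of the 44 arrays (points) with the group mean (lines), for the brighter probe set of each gene; groups run along the horizontal axis by study, with R1 or R2 doses in mg/kg. Cyp2b2 and Aldh1a1 are low in vehicle livers of study 3 (means of 258.3 and 196.6) and high in dosed livers of that study (2941 and 2903), and Cyp2c7 is lowest at R1 100 after 336 h (mean 1533).

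The 4 probe sets that share Cyp2b2 with another symbol moved the same way at 336 h. Called higher were 4 of 4 at 20 mg/kg (log2 fold changes of 1.26 to 2.51), 4 of 4 at 30 mg/kg (2.79 to 3.58) and 2 of 4 at 100 mg/kg (0.21 to 2.59). R2 called 4 of 4 (2.15 to 2.62). At 24 h of R1 they numbered 0, 2 and 1 of 4 at 10, 30 and 100 mg/kg, with log2 fold changes of 0.91 to 1.47. Probe sets of this family can bind RNA of near-identical Cyp2b genes, which leaves the share of Cyp2b2 itself uncertain.

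Cyp2c6v1 was called with R2 by 1 of its probe sets. It was not called in the 6 R1 comparisons, and R2 was not tested against R1. The brighter probe set, rc_AA945571_s_at, had 4005, 4256, 2845, 2845 and 2962 in R2 livers, against 2521, 2411, 1931 and 2359 in study 4 vehicle livers. The groups did not overlap, and R2 livers 1 and 2 stood above the other three. The log2 fold change was 0.54 ± 0.17, or 1.45-fold (adjusted p = 0.0271). The call ended without vehicle array 3, without R2 array 1 or 2, and with study 4 fitted alone (adjusted p up to 0.112). M14776_f_at gave the same size, 0.54 ± 0.21, and was not called (adjusted p = 0.0752). It was called without vehicle array 4, without R2 array 3 and with cyclic loess (adjusted p between 0.0126 and 0.379 over the settings).

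With R1 at 24 h, rc_AA945571_s_at had 2343, 2505 and 2303 in vehicle livers, 3339, 3312, 3339 and 3339 at 10 mg/kg, 3035, 2924 and 2749 at 30 mg/kg, and 3383, 3115 and 2924 at 100 mg/kg. All dosed arrays lay above all vehicle arrays. Groups of 3 or 4 arrays can separate by chance, and the doses share the same vehicle arrays. The log2 fold changes of 0.48 ± 0.20, 0.28 ± 0.21 and 0.40 ± 0.21 were not called (adjusted p of 0.369, 0.724 and 0.342). Equal values such as 3339 occur because every array has the same sorted values, so that near the top of the scale the rank of a probe set fixes its signal. At 10 mg/kg it was called with study 1 fitted alone (adjusted p = 0.0448, up to 0.626 over the other settings).

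After 336 h of R1 the Cyp2c6v1 levels by rc_AA945571_s_at overlapped those of their vehicles. In study 2 rc_AA945571_s_at had 2456, 2315, 3078 and 2442 in vehicle livers, 2674, 2828, 4045, 3862 and 2653 at 20 mg/kg, and 1258, 3078, 3160 and 2939 at 100 mg/kg. In study 3 it had 4005, 3934, 3661 and 4005 at 30 mg/kg, against 3827, 4256, 3934, 4709 and 3604 in vehicle livers. The first array at 100 mg/kg stood far below its group and the vehicle arrays of study 3 all lay above those of study 2. The log2 fold changes were 0.30 (95% interval -0.05 to 0.65) at 20 mg/kg, -0.05 (-0.40 to 0.29) at 30 mg/kg and -0.06 (-0.43 to 0.31) at 100 mg/kg. Study 3 vehicle livers were higher than study 2 vehicle livers by 0.66 ± 0.17 (adjusted p = 0.00492). By M14776_f_at, 20 mg/kg after 336 h gave 2241 to 2397, against 1907 to 2210 in vehicle livers, and was not called (0.16 ± 0.21, adjusted p = 0.805). This probe set ranged from 1151 to 3723 over all arrays, with log2 fold changes from -0.17 to 0.58 in the 7 comparisons and 0 of 7 called by limma, 2 of them with an unadjusted p under 0.05. Among the 11 levels of rc_AA945571_s_at the only neighbours without overlap were 30 mg/kg in study 3 and, below it, 10 mg/kg in study 1.

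**Figure D3:**
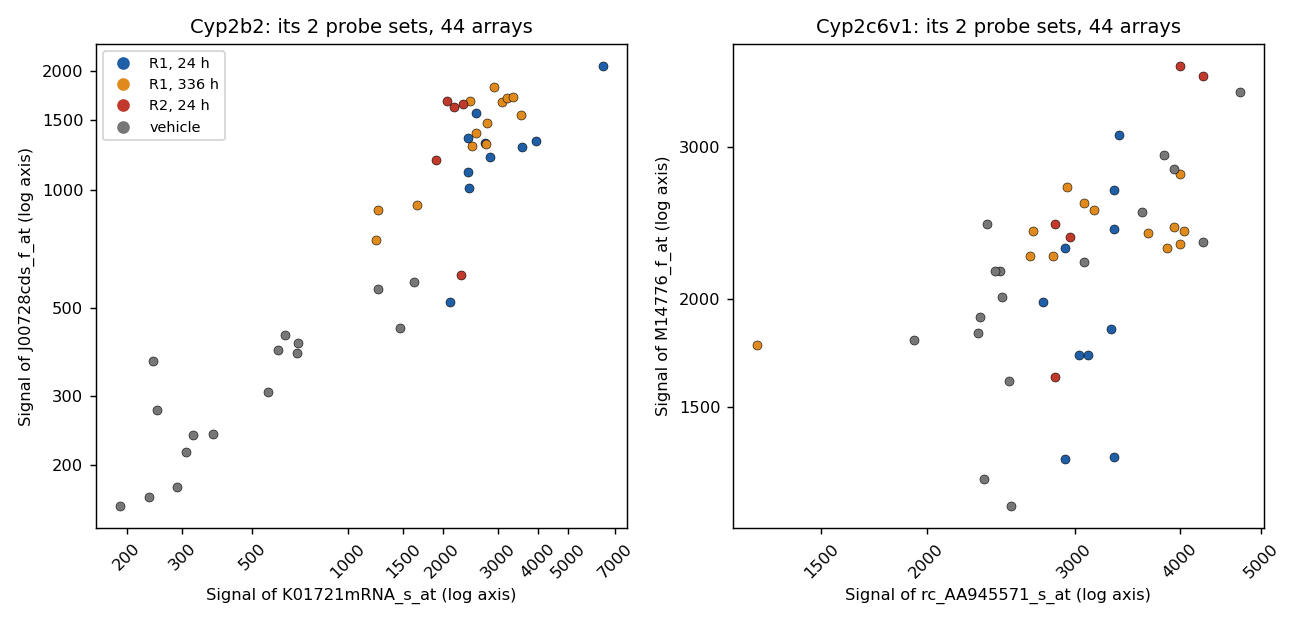
Signals of both probe sets of Cyp2b2 (left) and of Cyp2c6v1 (right) against each other in the 44 arrays, on log axes, coloured by compound and time with vehicle arrays in grey. For Cyp2b2 the arrays follow a common line and most vehicle arrays lie at its lower end; for Cyp2c6v1 they scatter, with dosed and vehicle arrays mixed.

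The probe sets of Cyp2b2 tracked each other more closely than those of Cyp2c6v1, as the plot of probe set pairs shows. Pearson's r over the 44 arrays, after subtracting the mean of the vehicle of the same study, was 0.941 for Cyp2b2 and 0.604 for Cyp2c6v1. With each array set against its own group mean instead, r was 0.684 and 0.411. In that second measure M14776_f_at was closer to Cyp2c7 (0.618) and to J00728cds_f_at of Cyp2b2 (0.58) than to rc_AA945571_s_at. It gave 0.108 with K01721mRNA_s_at of Cyp2b2. Whether M14776_f_at reads Cyp2c6v1 alone was not tested. These are descriptions, since the points share array, study and common scale.

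Cyp2c7 fell with R1 after 336 h at all 3 doses and was not called at 24 h with either compound. In study 2, M14775_s_at had 4304, 5377, 4914 and 6196 in vehicle livers, 1601, 2621, 3435, 3284 and 2468 at 20 mg/kg, and 1397, 1816, 1351 and 1569 at 100 mg/kg. Every dosed array lay below every vehicle array, and the doses overlapped in 1 array at 20 mg/kg. Relative to vehicle the falls were -0.99 ± 0.20 (adjusted p = 0.00113) and -1.76 ± 0.22 on the log2 scale (adjusted p = 2.57e-08), or 0.503 and 0.296 times the vehicle level. In study 3 it had 2884, 3628, 2186 and 3212 at 30 mg/kg, against 9050, 6277, 8294, 8418 and 5941 in vehicle livers. The groups did not overlap, with a log2 fold change of -1.35 ± 0.20 (adjusted p = 3.76e-06).

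The fall of Cyp2c7 was deeper at 100 than at 20 mg/kg after 336 h. The difference was -0.77 ± 0.20 (adjusted p = 0.0193), and Cyp2c7 was the 1 of 6 probe sets called there, against 4.07% of all. This call ended without arrays 3 or 4 at 20 mg/kg, without arrays 1 or 3 at 100 mg/kg, and with arrays weighted by quality, where adjusted p reached 0.0945. The 3 falls against vehicle were called in every setting.

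At 24 h of R1, Cyp2c7 had 3435, 3259 and 3357 in vehicle livers, 2109, 3357, 4222 and 4506 at 10 mg/kg, 3862, 3827 and 3753 at 30 mg/kg, and 6057, 3958 and 3827 at 100 mg/kg. The lowest dose spread to both sides of the vehicle, and all arrays of the other 2 doses lay above it. The log2 fold changes of 0.02 (95% interval -0.44 to 0.49), 0.19 (-0.31 to 0.69) and 0.43 (-0.07 to 0.93) were not called. With R2 it had 5756, 5424, 3723, 5212 and 4304, against 3412, 4304, 5099 and 6461 in vehicle livers. Those groups overlapped fully, with a log2 fold change of 0.04 (-0.37 to 0.45). In the order of the 11 Cyp2c7 levels, which ran from vehicle livers of study 3 at the top to 100 mg/kg of R1 after 336 h at the bottom, every pair of neighbours overlapped.

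The R1 effect on Cyp2c7 differed between the times by a test of the difference itself. At 100 mg/kg the effect at 336 h minus that at 24 h was -2.19 ± 0.33 (adjusted p = 1.09e-05), and Cyp2c7 was the only member called of 6, against 5.3% of all probe sets. At 30 mg/kg it was -1.54 ± 0.32 (adjusted p = 0.00668). Both differences were called in every setting tried, and both set studies of different vehicles beside each other. Vehicle livers of study 3 were above those of study 2 by 0.54 ± 0.20, which was not called (adjusted p = 0.0606). It was called in 6 of 19 other settings, among them the filter at percentile 60, weighted arrays, and without study 2 vehicle array 4 or study 3 vehicle array 2 or 5 (adjusted p between 0.0169 and 0.186 over the settings). The 3 probe sets shared with another Cyp2c gene followed Cyp2c7 in the comparisons against vehicle. After 336 h of R1 3 of 3 were lower at each dose, with log2 fold changes of -0.99 to -0.75 at 20 mg/kg, -1.28 to -1.18 at 30 mg/kg and -1.43 to -1.25 at 100 mg/kg. At 24 h the 3 lay between -0.40 and 0.36 with R1 and R2, and none was called by limma. For 100 against 20 mg/kg after 336 h 1 of 3 was called lower (-0.67 to -0.37). The effect at 336 h minus that at 24 h was called in 3 of 3 at 100 mg/kg (-1.78 to -1.49). At 30 mg/kg it was called in 1 of 3 (-1.46 to -1.27).

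Aldh1a1 rose with R2 and with every dose of R1 except 10 mg/kg at 24 h. In study 1, AF001898_at had 239.4, 102.3 and 325.5 in vehicle livers, 163.4, 180.1, 185.4 and 441.9 at 10 mg/kg, 681.7, 1151 and 564.3 at 30 mg/kg, and 995.0, 823.9 and 759.4 at 100 mg/kg. The lowest dose overlapped the vehicle, and both higher doses lay above all arrays of vehicle and lowest dose. The log2 fold changes were 0.15 ± 0.34 (adjusted p = 0.935), 1.91 ± 0.36 (adjusted p = 4.54e-04) and 2.08 ± 0.36 (adjusted p = 6.9e-05).

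Between doses of R1 at 24 h, Aldh1a1 was the gene called and the probe sets of the other 3 were not. At 100 mg/kg Aldh1a1 was higher than at 10 mg/kg by 1.93 ± 0.34 (adjusted p = 1.87e-04), as the 1 of 6 probe sets called, against 3.98% of all. At 30 mg/kg it was higher than at 10 mg/kg by 1.77 ± 0.34 (adjusted p = 0.00396), again the 1 of 6 called, against 0.377% of all. The second of these calls ended without the 30 mg/kg array 2 (adjusted p of up to 0.0782). From 30 to 100 mg/kg the difference was 0.16 with a 95% interval of -0.56 to 0.89. In that comparison limma called 0 of 6 probe sets, against 0.0629% of all, and 0 had an unadjusted p under 0.05.

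After 336 h Aldh1a1 was higher at all 3 doses of R1. It had 852.1, 610.2, 759.4 and 900.8 in study 2 vehicle livers, 2037, 2001, 2962, 2134 and 2315 at 20 mg/kg, and 1808, 1092, 2210 and 1402 at 100 mg/kg. Dosed and vehicle livers did not overlap. The log2 fold changes were 1.55 ± 0.29 (adjusted p = 3.49e-04) and 1.02 ± 0.31 (adjusted p = 0.0239), and the higher dose minus the lower was -0.53 (95% interval -1.12 to 0.07). The call at 100 mg/kg ended without vehicle array 2 or 3, or without dosed array 1 or 3 (adjusted p up to 0.108).

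The largest change of the 4 genes was that of Aldh1a1 in study 3, where it had 2584, 2884, 3160 and 2984 at 30 mg/kg of R1, against 208.4, 133.2, 386.2, 140.1 and 114.8 in vehicle livers. The log2 fold change was 4.01 ± 0.29, or 16.1-fold (adjusted p = 4.43e-14). The vehicle livers of study 3 were lower than those of study 2 by 2.11 on the log2 scale (-2.11 ± 0.29, adjusted p = 7.5e-07), without overlap. Dosed livers of the same studies had means of 2903 in study 3, 2290 at 20 mg/kg and 1628 at 100 mg/kg in study 2. At 30 mg/kg the effect was larger at 336 h than at 24 h by 2.10 ± 0.46 (adjusted p = 0.0122), a call that ended without study 1 vehicle array 1 or 3 or without the 24 h array 3 at that dose (adjusted p up to 0.077). At 100 mg/kg it was -1.05 ± 0.47 and was not called (adjusted p = 0.236).

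With R2, Aldh1a1 had 917.4, 850.2, 1332, 588.4 and 1063, against 166.9, 221.7, 169.4 and 131.7 in study 4 vehicle livers. Every R2 array lay above every vehicle array, with a log2 fold change of 2.42 ± 0.29, or 5.34-fold (adjusted p = 3.27e-08). R1 at the same 24 h gave 0.15, 1.91 and 2.08 at 10, 30 and 100 mg/kg. In the order of the 11 levels of Aldh1a1, the only neighbours without overlap were 30 and 10 mg/kg of R1 at 24 h.

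Across arrays, Cyp2b2 and Aldh1a1 had similar patterns between groups and hardly any within them. Their r over 44 arrays was 0.809 after subtracting the vehicle mean of the study and 0.0422 after subtracting each group's own mean. Cyp2b2 and Cyp2c7 gave -0.591 and -0.175 in the same measures, and Cyp2c7 and Aldh1a1 gave -0.314 and 0.143. The genes whose vehicle-centred pattern was most like that of Cyp2b2 were Gpx2, a glutathione peroxidase (r = 0.876), Ugt2b1, a glucuronosyltransferase, and Ephx1, the microsomal epoxide hydrolase (0.824). Gpx2 also came first for Aldh1a1 (0.809), before Krt18, a keratin of simple epithelia (0.803), and Ctsd, the lysosomal protease cathepsin D (0.8). Gpx2 was called in 5 of the 7 comparisons and had its highest log2 fold change, 4.18 ± 0.39, at 30 mg/kg of R1 after 336 h (adjusted p = 5.38e-11). For Cyp2c7 the most alike were the apolipoprotein gene Apoa4 (0.837), Itih3 (0.821) and the plasma cholesterol acyltransferase gene Lcat (0.821). Apoa4 fell at 20, 30 and 100 mg/kg after 336 h (log2 fold changes of -2.69, -3.345 and -2.64) and was 0.79 ± 0.38 with R2 (adjusted p = 0.172). Cyp2c6v1 had weaker likenesses, with Hsd17b4 (0.651), Psmd13 (0.646) and Gclc (0.62). These correlations describe arrays that share studies and groups.

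Other known targets of CAR and PXR were set beside the 4 genes, as the plot of these targets shows: 38 genes were listed, 26 had a probe set with 1 symbol and 25 were tested. Called higher with R1 at 24 h were 5 of 25 at 10 mg/kg against 1.04% of all probe sets, 8 at 30 mg/kg against 1.48%, and 11 at 100 mg/kg against 3.96%. After 336 h 14 of 25 were higher at 20 mg/kg against 2.55% of all probe sets, 14 at 30 mg/kg against 5.27%, and 13 at 100 mg/kg against 5.11%. R2 gave 14 of 25 against 7.44%. Their median log2 fold changes were 0.412, 0.876 and 1.11 at 24 h from the lowest to the highest dose, 1.01, 1.08 and 1.04 at 20, 30 and 100 mg/kg after 336 h, and 0.935 with R2.

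**Figure D4:**
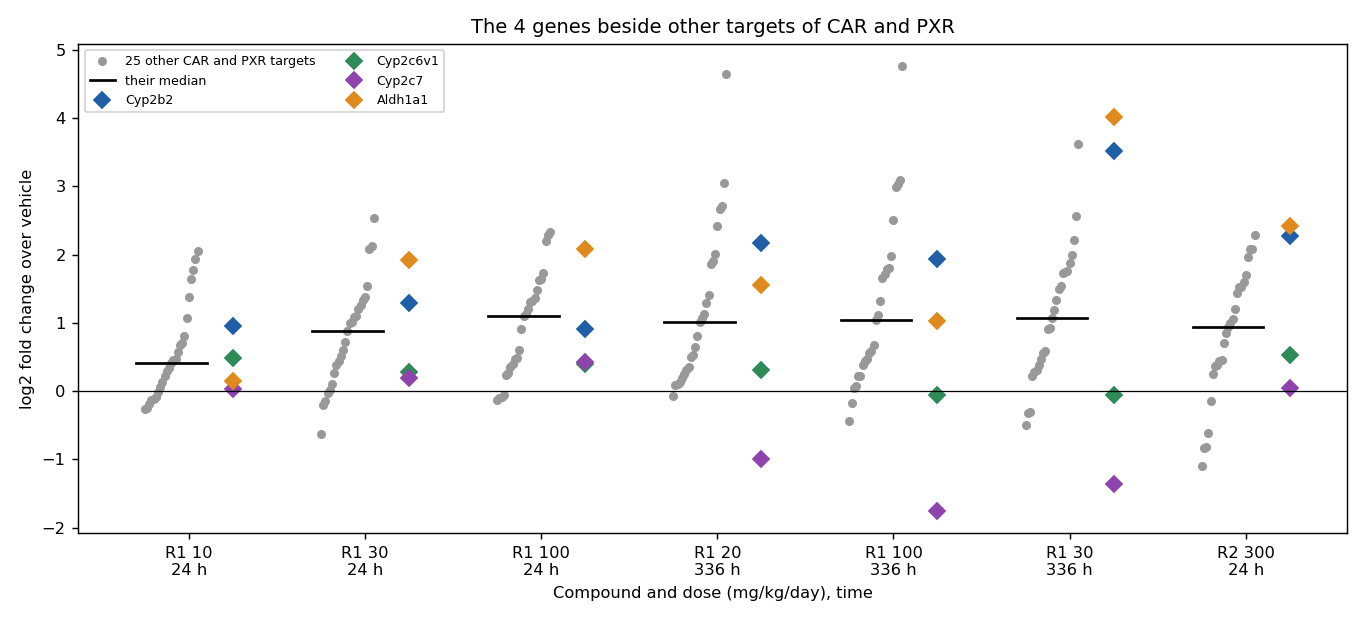
Log2 fold change over vehicle (vertical axis) of 25 other CAR and PXR targets (grey points, sorted within a group, with their median as a line) and of the brighter probe set of each of the 4 genes (diamonds) in the 7 dosed groups (horizontal axis). Cyp2b2 and Aldh1a1 exceed the target median in the R1 30 group at 336 h (3.52 and 4.01 against 1.08), and Cyp2c7 lies below every point of the list in the 3 groups of 336 h.

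The targets differed in which dosed groups they joined. Slco1a4, an organic anion uptake transporter, was called in all 7 comparisons at 1.75 to 2.99, and the monooxygenase gene Cyp3a23-3a1 was called in all 7 at 1.74 to 3.10. Por, the electron donor of microsomal monooxygenases, rose by 1.94 ± 0.32 at 10 mg/kg of R1 after 24 h and was -0.44 at 100 mg/kg after 336 h. Gsta3, a glutathione transferase, gave the highest value of the list, 4.76 at 100 mg/kg after 336 h, and was 0.81, 1.10 and 1.30 and not called at 24 h of R1. Abcc3, an export pump for conjugates, rose by 2.71, 2.56 and 3.03 at 20, 30 and 100 mg/kg after 336 h. In the R2 group 3 targets were lower: Cyp2b3 (-1.10), Gsta4 (-0.83) and Cyp2a2 (-0.82). Cyp2b3, a relative of Cyp2b2, lay between -0.50 and 0.25 and was not called in the 6 R1 comparisons.

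Of the receptors and partners of the pathway, 14 were tested of 21 listed. With R1 at 24 h 0, 1 and 2 of 14 were higher from the lowest to the highest dose, against 1.04%, 1.48% and 3.96% of all probe sets, and none was lower by limma. The chaperone gene Hsp90ab1 was higher at 30 and 100 mg/kg (0.79 and 0.90), and the hepatocyte regulator Hnf4a at 100 mg/kg (0.80). After 336 h none was called at 20 and 100 mg/kg by limma, and at 30 mg/kg Hsp90ab1 was higher (0.62) and the glucocorticoid receptor Nr3c1 (-1.23) and Rxrg (-0.70) were lower. R2 gave Hsp90ab1 higher (0.79) and Rxrg (-1.11) and Cebpa (-0.84) lower. In both of these comparisons 1 of 14 was higher and 2 of 14 lower, against 5.27% higher and 6.01% lower of all probe sets at 30 mg/kg and 7.44% and 7.88% with R2. CAR and PXR themselves had no probe set with 1 symbol in the annotation used.

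Of the 5 other Cyp2c genes tested, Cyp2c11, the abundant male form, and Cyp2c23 fell with Cyp2c7 at 2 of 3 doses after 336 h. Cyp2c11 fell at 100 mg/kg (-3.40) and 30 mg/kg (-1.10), and was -0.53 and not called at 20 mg/kg. Cyp2c23 fell at 100 mg/kg (-0.83) and 30 mg/kg (-0.73), by 1 of its 3 probe sets in each. At 20 mg/kg it was -0.36 and not called. Cyp2c12, the female form, rose by 2.89 at 100 mg/kg, and Cyp2c22 rose by 0.71 at 20 mg/kg and 1.40 at 100 mg/kg. At 30 mg/kg neither was called (1.67 and 0.24). Cyp2c22 was higher in study 3 vehicle livers than in study 2 vehicle livers by 1.96 ± 0.20 (adjusted p = 4.307e-10). Called lower were 2 of 5 at 100 mg/kg against 5.2% of all probe sets, 2 of 5 at 30 mg/kg against 6.01%, 0 of 5 at 20 mg/kg against 1.89% and 2 of 5 with R2 against 7.88%. Those with R2 were Cyp2c23 (-1.43) and Cyp2c13 (-0.93). None of the 5 was lower by limma with R1 at 24 h, where 0.204%, 0.252% and 2.44% of all probe sets were called lower from the lowest to the highest dose.

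Growth-hormone-dependent and sex-patterned liver genes, the class to which Cyp2c7 belongs, had lower members both in the groups in which Cyp2c7 fell and with R2, in which it was not called. Of 24 tested of 30 listed, 3 were higher and 3 lower at 20 mg/kg after 336 h, 1 higher and 11 lower at 30 mg/kg, and 4 higher and 8 lower at 100 mg/kg. Of all probe sets 2.55% were higher and 1.89% lower at 20 mg/kg, 5.27% and 6.01% at 30 mg/kg, and 5.11% and 5.2% at 100 mg/kg. R2 gave 2 higher and 11 lower, against 7.44% and 7.88% of all. R1 at 24 h gave 1, 1 and 3 higher and 1, 0 and 4 lower by limma, against 1.04%, 1.48% and 3.96% higher and 0.204%, 0.252% and 2.44% lower of all. Obp3, a gene of the male-enriched urinary protein family, fell after 336 h at 100 mg/kg (-4.45) and 30 mg/kg (-1.42) and was -0.41 and not called at 20 mg/kg. Igfals, which encodes a subunit of the circulating IGF complex, was lower in all 3 groups of 336 h (-1.16, -1.05 and -0.87 at 20, 30 and 100 mg/kg), with R2 (-0.98), and at 10 and 100 mg/kg after 24 h (-1.03 and -0.90), where Cyp2c7 was not called. Car3, the muscle and male liver carbonic anhydrase, was lower with R2 (-3.39).

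Of genes of vitamin A handling other than Aldh1a1 and Cyp2c7, 12 were tested of 31 listed. None was higher by limma in any of the 7 comparisons, and 2 were lower in 1 comparison each: the alcohol dehydrogenase Adh4 at 100 mg/kg of R1 after 336 h (-1.78) and the retinoic acid receptor Rara with R2 (-0.58). This is 1 of 12 in each, near the 5.2% and 7.88% of all probe sets called lower there. Of 7 other aldehyde dehydrogenases tested of 17 listed, the folate enzyme gene Aldh1l1 rose at 20 and 100 mg/kg after 336 h (1.01 and 1.61) and was 0.13 at 30 mg/kg, where Aldh1a1 rose most. The vehicles of these doses differed: study 3 vehicle livers were above those of study 2 for Aldh1l1 (1.82 ± 0.18, adjusted p = 1.425e-10) and below them for Aldh1a1 (-2.11). In R2 livers, in which Aldh1a1 rose, 3 of 7 fell, against 7.88% of all probe sets: Aldh2 (-0.52), Aldh5a1 (-0.81) and Aldh6a1 (-1.27).

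Some marker lists moved in the same comparisons as the 4 genes. Periportal hepatocyte genes fell: 2 and 5 of 9 tested (13 listed) at 30 and 100 mg/kg of R1 after 24 h, 3, 4 and 5 of 9 at 20, 30 and 100 mg/kg after 336 h, and 6 of 9 with R2. The shares of all probe sets called lower were 0.252% and 2.44% at those doses after 24 h, 1.89%, 6.01% and 5.2% after 336 h, and 7.88% with R2. Their summed signal was 9697 to 11590 in study 1 vehicle livers, 9914 to 10960, 6526 to 7955 and 5863 to 6827 from the lowest to the highest dose. In study 2 it was 11950 to 13760 in vehicle livers, 7821 to 9616 at 20 mg/kg and 4971 to 12690 at 100 mg/kg. It was 7825 to 9305 at 30 mg/kg in study 3 against 10810 to 15040 in vehicle livers, and 6104 to 8129 with R2 against 11540 to 13050 in vehicle livers. Of the pericentral list, in whose zone CAR targets are mainly expressed, 0, 0 and 1 of 10 tested (12 listed) were lower at 24 h of R1 by limma, 1, 2 and 3 at 20, 30 and 100 mg/kg after 336 h, and 3 with R2, beside the same shares of all probe sets, and none was higher. Its summed signal over 336 h was 5376 to 8830 in study 2 dosed livers and 8902 to 12030 in vehicle livers, and 6141 to 8124 in study 3 dosed livers and 8148 to 12450 in vehicle livers. With R2 it was 5389 to 7900, against 7986 to 10170 in vehicle livers. Their part in the results was not tested.

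Of the bile duct list, 7 genes were tested of 10 listed, and 2 were higher at 100 mg/kg of R1 after 24 h, 3, 3 and 2 at 20, 30 and 100 mg/kg after 336 h, and 3 with R2. Of all probe sets 3.96% were higher at 100 mg/kg after 24 h, 2.55%, 5.27% and 5.11% after 336 h, and 7.44% with R2. The genes called were Krt8, Krt18 and Epcam. Krt19, the keratin that defines bile duct cells, was called in none of the 7 comparisons by limma and had signals of 2.38 to 34.7. Spp1, Cftr and Cldn7 were likewise called in none of the 7. Krt18 had a mean signal of 900.7 over all arrays and so makes up much of the list's sum. The list's summed signal was 733.2 to 864.7 in study 1 vehicle livers, 897.6 to 1181, 929.7 to 1395 and 1363 to 1583 from the lowest to the highest dose. In study 2 it was 1162 to 1611 in vehicle livers, 1645 to 2630 at 20 mg/kg and 1405 to 2436 at 100 mg/kg. It was 1755 to 2499 at 30 mg/kg in study 3 against 775.5 to 984.2 in vehicle livers, and 1381 to 2338 with R2 against 709.3 to 1124 in vehicle livers. In the Kupffer, endothelial, stellate and leukocyte lists, 4, 5, 10 and 8 genes were tested, each read from its brightest probe set. At most 2 genes of a list were called in any 1 of the 7 comparisons, all of them lower. Of the Kupffer list, Clec4f (-1.31) and C1qb (-0.81) were lower at 100 mg/kg of R1 after 336 h, against 5.2% of all probe sets. Clec4f was also lower at 20 and 30 mg/kg after 336 h (-0.88 and -0.82), against 1.89% and 6.01%. Kdr of the endothelial list was lower at 30 and 100 mg/kg after 336 h (-1.19 and -0.91), and Cd74 of the leukocyte list at 100 mg/kg (-1.29). With R2, 2 of 3 probe sets of C1qc and 2 of 4 of Cd74 were called though the brightest ones were not (0.20 and 0.64). In study 2 the stellate list summed to 684.9 to 944.8 in vehicle livers. It gave 536 to 578.2 at 20 mg/kg and 485.8 to 657.8 at 100 mg/kg. The Kupffer list gave 933.2 to 1473, 630.8 to 919.4 and 559.6 to 754.5 in the same order. In study 3 the stellate list gave 344.9 to 471.1 at 30 mg/kg, against 411.7 to 1059 in vehicle livers. The Kupffer list gave 578 to 752.4 against 773.6 to 1149. At 24 h both sums overlapped those of their vehicles with R1 and R2. The log2 ratio of 3′ to 5′ probe sets of beta-actin, a sign of RNA quality, was 1.1 to 1.78 in study 1 vehicle livers, 0.642 to 1.06 at 10 mg/kg of R1, 0.833 to 1.08 at 30 mg/kg and 0.536 to 1.24 at 100 mg/kg, so that the lower 2 doses did not overlap the vehicle. After 336 h it was 1.01 to 1.61 in study 2 vehicle livers, 0.741 to 1.1 at 20 mg/kg and 0.618 to 1.21 at 100 mg/kg, and in study 3 it was 0.675 to 0.824 at 30 mg/kg, against 0.812 to 1.47 in vehicle livers. With R2 it was 0.799 to 1.49, against 0.486 to 1.52 in vehicle livers. The same ratio for GAPDH lay between -0.252 and 1.01 over all arrays. The part of these values in the results was not tested.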

How the data were processed

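The values were deposited per array as intensity. Per the submitters' processing notes the authors made these intensities with MAS5; its version and scaling target are not given in the sources used here. Tested on the file, the sorted intensities of all 44 arrays were identical (largest difference 0, median 14.5, range 0.056 to 13236). They had thus been quantile normalized over all arrays before deposit, which no label mentions, and a level is relative to the rest of its array.

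Leaving out 59 control probe sets kept 8740: 7006 with 1 gene symbol in the platform annotation, 308 with several and 1426 with none. Values were taken as log2 after adding 2.9, which is percentile 20 of the intensities. The filter asked for a highest group mean of 9.17 (percentile 40) and kept 6361 probe sets of 3696 genes. limma 3.58.1 (R 4.3.3) fitted 1 mean for each of 11 groups, with a mean-variance trend and 33 residual degrees of freedom, and 15 comparisons were tested, 2-sided. The procedure was tested on simulated data. Sequences were searched and plots drawn with Python 3.11.15, pandas 2.3.3, numpy 2.4.6 and matplotlib 3.10.9.

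Where a gene had several probe sets, the one of highest mean stood for it. Named from each pathway list were up to 3 called genes of largest change per comparison and those set beside a result, and for each of the 4 genes the 3 most alike in pattern. The 4 genes and the 14 lists were chosen with earlier results of these data known. The alternatives were other offsets, filters, scalings and variance models, array weights, each study alone, a replicate block, the mean over a gene's probe sets, and each array left out in turn.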

Additional observations from a re-analysis of the deposited data

Results flagged for a closer look

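A single array stood apart in 4 of the 48 sets of 4 or 5 arrays examined, and chance alone sets apart about 1 in 20. For Cyp2c6v1, array 1 at 100 mg/kg of R1 after 336 h was far below its group with both probe sets, at 1258 with rc_AA945571_s_at, where the other arrays had 2939 to 3160, and at 1770 with M14776_f_at, where the others had 2539 to 2695. The other Cyp2c6v1 case is small in size: rc_AA945571_s_at had 3312 in array 2 at 10 mg/kg after 24 h, and the other 3 arrays were tied at 3339. For Aldh1a1, array 4 at 10 mg/kg after 24 h had 441.9, where the other arrays had 163.4 to 185.4.

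The effect of R1 differed between 336 h and 24 h by limma's test of the difference in 4 cases. Cyp2c7 had a difference of log2 fold changes of -2.185 at 100 mg/kg (adjusted p = 1.09e-05) and of -1.541 at 30 mg/kg (adjusted p = 0.00668), 336 h minus 24 h. At 30 mg/kg Cyp2b2 with K01721mRNA_s_at had 2.231 (adjusted p = 0.00466) and Aldh1a1 had 2.096 (adjusted p = 0.0122). Each of these sets 2 studies with their own vehicles side by side, so time and study cannot be told apart.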

How the results depend on the processing

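Counts of the 6 probe sets called moved by over 1.5 times in 6 of 15 comparisons. At 10 mg/kg of R1 after 24 h the count of 1 was 0 with the offset at percentile 5, with no filter, with arrays centred, with no trend and with the replicate block, 2 with each study fitted alone, and 0 to 0 with arrays left out in turn. At 30 mg/kg after 24 h the count of 3 was 1 with no trend and 1 to 3 with arrays left out. At 100 mg/kg after 24 h the count of 1 was 2 with arrays weighted by quality and 1 to 2 with arrays left out. For 100 against 20 mg/kg after 336 h the count of 1 was 0 with weighted arrays and 0 to 1 with arrays left out. For 30 against 10 mg/kg it was 0 to 1 with arrays left out. For vehicle of study 3 against study 2 the count of 3 was 5 with weighted arrays and 3 to 4 with arrays left out.

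Over single probe sets, 1613 values kept direction and call, 41 lost a call, 13 gained 1 and 37 changed sign, and every value that changed sign was one that had not been called. The sign of Cyp2b2 (K01721mRNA_s_at) at 100 against 10 mg/kg turned to 0.0203 with cyclic loess and 0.1484 with weighted arrays. With weighted arrays Cyp2c6v1 (rc_AA945571_s_at) at 100 mg/kg after 336 h turned to 0.0233 and Cyp2c7 with R2 to -0.05814. With the mean over a gene's probe sets Cyp2c6v1 gave 0.06619 at 100 mg/kg after 336 h, 0.06212 for 100 against 10 mg/kg and 0.09271 for vehicle of study 4 against study 1. The cause was not tested.

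With arrays left out in turn, sign changes came with these ranges. For Cyp2b2, K01721mRNA_s_at ran from -0.3034 to 0.1457 at 100 against 10 mg/kg, -0.09634 to 0.6124 at 30 against 10, -0.6485 to 0.06023 at 100 against 30 and -0.4669 to 0.009077 at 100 against 20, and J00728cds_f_at from -0.6183 to 0.07115 at 100 against 10 and -0.1409 to 0.3064 at 30 against 10. Cyp2c6v1 by rc_AA945571_s_at ran from -0.1846 to 0.2579 at 100 mg/kg and -0.09615 to 0.0002589 at 30 mg/kg after 336 h, and -0.09974 to 0.02822 for vehicle of study 4 against study 1. By M14776_f_at it ran from -0.0562 to 0.2665 at 30 mg/kg after 24 h, -0.001357 to 0.4213 at 100 against 10 and -0.0302 to 0.1718 at 100 against 20. Cyp2c7 ran from -0.1099 to 0.2548 at 10 mg/kg, -0.06785 to 0.2969 at 30 against 10 and -0.1127 to 0.1942 with R2. Aldh1a1 ran from -0.3282 to 0.493 at 10 mg/kg, -0.05297 to 0.4594 at 100 against 30 and -0.71 to 0.1113 for vehicle of study 4 against study 1.

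Over 38 same-numbered pairs of arrays the deviations from group means correlated between -0.0899 and 0.153, with 4 pairs above 0.1. Their median was 0.0361, against -0.0166 for pairs of different number. Correlations this weak do not settle whether the replicate numbers pair the samples. With the replicate block, counts called were 0, 3 and 1 at 10, 30 and 100 mg/kg after 24 h, 4 for each dose of 336 h and 4 with R2, and Cyp2c7 at 10 mg/kg after 24 h gave -0.05003. The block also called the vehicle difference of Cyp2c7 between studies 3 and 2.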
